A study of Mus musculus with 38 samples.

Results

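The 10 genes described here belong to the response of a cell to stress in its endoplasmic reticulum and to the wider integrated stress response: Hspa5, Hsp90b1, Dnajb9, Herpud1, Xbp1, Atf4, Ddit3, Atf3, Trib3 and Asns. They were taken by name, as every array feature other than a control whose gene name in the scanner files was 1 of the 10, so that they make up 10 of 28786 gene names and are read by 14 of 41174 distinct features. Dnajb9 has 3 features, Hsp90b1 and Trib3 have 2 each, and the other 7 genes have 1. Each gene was read from its brightest feature, and the other features of Hsp90b1, Dnajb9 and Trib3 are described beside it.

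The samples come from the MMTV-PyMT model of breast cancer. Its transgene places polyoma middle T under a mouse mammary tumor virus promoter, which is active in mammary epithelium among other organs. Hyperplastic lesions from female mice that carried this transgene together with a GFP transgene under an actin promoter were transplanted into cleared mammary fat pads of female FVB/n mice, and GFP-positive tumor cells were later sorted for RNA. In the progression experiment, 22 arrays held 5 adenomas from early outgrowths, 6 carcinomas from late outgrowths, 6 samples of disseminated cells from the lungs of mice that still bore late outgrowths, and 5 samples of metastases from lungs after the primary tumors had been removed. In the chemotherapy experiment, 16 arrays held 6 untreated tumors, 6 residual tumors harvested after the first dose of docetaxel, doxorubicin and cyclophosphamide (TAC), and 4 relapsed tumors harvested after repeated doses, with treatment begun 2 months after transplantation. The labels call these 3 groups control, regressed and resistant. No group lacked the PyMT transgene, and no group was of normal mammary gland or normal lung. Each disseminated sample pooled the lungs of several mice, and RNA of the progression experiment went through an additional round of amplification, so the experiments were never compared with each other. The labels do not say whether the arrays of a group came from separate mice, so p-values measure only the spread between these samples.

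On every array the sample was labeled with Cy5 and a pooled mouse reference RNA with Cy3, and each level below is a normalized log2 ratio of sample to reference. A level of 0 therefore means as much signal as in the reference, and a level says nothing of how abundant 1 gene is beside another. The median share of features well above background was 61.6% in adenomas (48.4% to 75.5%), 74.2% in carcinomas, 70.3% in disseminated cells and 74.6% in metastases, and 54.4%, 57.0% and 58.6% in untreated, residual and relapsed tumors. The median sample signal of an array lay between 403 and 500 in metastases, above every adenoma (66.6 to 228) and every carcinoma (219 to 349). In disseminated cells it lay between 81.3 and 457. The part of signal strength in the results was not tested. All 14 features of the 10 genes were well above background on every array, except 1 Dnajb9 feature on 1 array, and none was saturated.

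Markers of other cells moved with the progression groups. The mean level of 14 macrophage genes was 0.01, -0.31, -0.41, 0.01 and -0.02 in adenomas 1 to 5, and it lay between -1.09 and 0.13 in carcinomas 1 to 5. It was 5.07, 3.93, 4.30, 3.16, 4.60 and 4.0 in disseminated samples 1 to 6, and 3.22, 0.16, 4.08, 4.95 and 0.71 in metastases 1 to 5. Carcinoma 6 stood apart from its group with a macrophage level of 4.77, and its median correlation with the other carcinomas over all genes was 0.760. That of disseminated sample 6 with its own group was lower, at 0.710, and those of disseminated sample 4 and metastasis sample 4 were both 0.776. The macrophage genes with the highest log2 ratios in disseminated samples were Ctss (mean 6.57), Cd14 (6.37) and Lyz2 (6.35), and Itgam, a defining surface integrin of these cells, was not well above background on any adenoma array, whereas all 14 genes were on every disseminated and metastasis array. Markers of alveolar macrophages (8 measured genes) averaged 5.50 in disseminated samples and 4.31 in metastases against 1.37 in adenomas, and those of neutrophils (9 measured genes) 5.18 in disseminated samples against 1.89 in adenomas. Neutrophil markers also stood at 4.01 in carcinoma 6 and at 4.07, 2.28, 2.40, 1.80 and 4.06 in metastases 1 to 5. Markers of T and NK cells (13 genes) lay between 0.19 and 0.93 in adenomas and between -0.26 and 0.06 in carcinomas, without overlap, and averaged 0.78 in disseminated samples and 0.11 in metastases. Those of fibroblasts (9 genes) averaged -2.24 in adenomas, -3.21 in carcinomas, -2.73 in disseminated samples and -3.64 in metastases. Markers of lung epithelium (10 genes) averaged 2.46 in disseminated samples and 2.01 in metastases against 1.05 in adenomas and 1.34 in carcinomas. Of these genes 9 were well above background on every disseminated array, and 9 on every metastasis array. In carcinomas 8 were so on every array, and in adenomas 5. The exception in the lung groups was Nkx2-1, a defining factor of that epithelium. It was well above background on 1 disseminated array and on no array of the other 3 groups. Markers of endothelium (9 genes) lay between 1.33 and 3.07 in disseminated samples, 0.91 and 1.31 in metastases, 0.44 and 1.42 in carcinomas and 0.06 and 0.48 in adenomas. Erythroid markers (5 measured genes) averaged 1.93 in disseminated samples, 0.99 in metastases, 1.24 in carcinomas and 0.86 in adenomas. Basal and myoepithelial markers (8 genes) averaged 0.78, 0.89, 1.35 and 1.43 in the same order. The part of these neutrophil, T and NK cell, fibroblast, lung, endothelial, erythroid and basal markers in the results was not tested.

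Mammary luminal markers (15 genes) were present in all groups but not evenly. Their mean level lay between 3.32 and 4.0 in adenomas and between 2.44 (carcinoma 6) and 3.92 in carcinomas. It was 2.52, 1.54, 0.32, 3.02, 0.62 and 3.59 in disseminated samples 1 to 6 and 3.69, 3.6, 3.40, 0.29 and 3.1 in metastases 1 to 5, so disseminated samples 3 and 5 and metastasis sample 4 held the least luminal signal. In the chemotherapy experiment luminal markers lay between 3.81 and 4.76 on all 16 arrays, and macrophage markers between -1.52 and 1.48. Cells were sorted for GFP, which macrophages of the host would lack, and the source of the macrophage signal was not tested. In bulk samples fewer cells of a type and less RNA per cell cannot be told apart.

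The endoplasmic reticulum folds secreted and membrane proteins with the help of chaperones, and an excess of unfolded protein is read by the sensors Ire1, Perk and Atf6. Ire1 splices the mRNA of Xbp1, Atf6 is cut to release a transcription factor, and both raise chaperones and degradation factors. Perk, like the kinases that sense amino acid shortage, viral RNA or heme shortage, phosphorylates the initiation factor eIF2alpha, which slows translation in general but favors translation of Atf4, and Atf4 with its partners raises Ddit3, Atf3, Trib3 and Asns. The arrays measure total mRNA, so neither Xbp1 splicing nor translation of Atf4 was read.

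The promoters show which of the 10 genes hold the known recognition motifs of these factors. RefSeq promoter windows of build GRCm38.p6, 250 bases before to 50 after the start of the gene, were searched on both strands for the endoplasmic reticulum stress element (CCAAT, 9 bases of any kind, CCACG), its second form (ATTGG, 1 base, CCACG), the unfolded protein response element (TGACGTGG) and the element bound by C/EBP and Atf factors (TGATGNAAN). All 10 genes have a window among the 32851. The first motif was in 0.119% of all windows and in those of Hspa5 and Hsp90b1, and the second was in 0.0365% of all windows and in that of Herpud1. The C/EBP and Atf element was in 3.95% of all windows and in those of Herpud1, Atf3, Trib3 and Asns. The unfolded protein response element was in 0.676% of all windows and in none of the 10, and no 2 matches overlapped. The windows of 2 chaperones and 2 Atf4 targets are printed as examples of genes with the first motif and with the C/EBP and Atf element. They run 5′ to 3′ on the strand of the gene, and capitals mark the matches: the stress element once in Hspa5 and, once on each strand, in Hsp90b1, and the C/EBP and Atf element in Trib3 (on the opposite strand, at bases 13 to 21 after the start) and Asns (at -23 to -15 from the start). A match is a description of the letters and no evidence that a factor was bound in these tumors.
Hspa5 (chr2:34771840-34772139, plus strand): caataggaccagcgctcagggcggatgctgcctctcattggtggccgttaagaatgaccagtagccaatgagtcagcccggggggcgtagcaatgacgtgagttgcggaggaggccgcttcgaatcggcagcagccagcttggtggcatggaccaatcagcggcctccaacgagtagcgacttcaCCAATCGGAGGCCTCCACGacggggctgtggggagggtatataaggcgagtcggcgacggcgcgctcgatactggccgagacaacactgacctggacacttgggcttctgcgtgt
Hsp90b1 (chr10:86705395-86705694, minus strand): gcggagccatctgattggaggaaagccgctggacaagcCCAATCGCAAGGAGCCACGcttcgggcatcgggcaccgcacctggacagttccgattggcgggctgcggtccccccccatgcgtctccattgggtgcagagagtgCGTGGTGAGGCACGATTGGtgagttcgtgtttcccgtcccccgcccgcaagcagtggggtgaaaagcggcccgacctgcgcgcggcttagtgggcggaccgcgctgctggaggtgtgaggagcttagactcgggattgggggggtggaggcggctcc
Trib3 (chr2:152344011-152344310, minus strand): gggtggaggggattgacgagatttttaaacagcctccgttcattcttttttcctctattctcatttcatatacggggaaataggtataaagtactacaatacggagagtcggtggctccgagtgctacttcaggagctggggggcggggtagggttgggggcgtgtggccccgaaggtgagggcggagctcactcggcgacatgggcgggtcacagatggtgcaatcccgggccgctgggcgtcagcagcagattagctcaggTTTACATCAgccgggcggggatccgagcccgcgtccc
Asns (chr6:7693160-7693459, minus strand): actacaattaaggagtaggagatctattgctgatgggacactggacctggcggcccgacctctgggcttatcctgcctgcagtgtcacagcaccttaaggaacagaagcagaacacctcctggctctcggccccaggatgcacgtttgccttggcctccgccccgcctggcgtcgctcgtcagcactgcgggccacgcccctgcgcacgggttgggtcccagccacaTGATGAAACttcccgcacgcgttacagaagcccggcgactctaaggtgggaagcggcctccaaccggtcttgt

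The progression experiment asks how tumor cells differ between the early lesion, the late primary tumor, cells that have reached the lung and overt lung metastases. The 10 genes did not move as 1 group. The chaperones Hspa5, Hsp90b1 and Dnajb9 were higher in disseminated cells and in metastases than in carcinomas on their brightest features, though 1 other feature each of Hsp90b1 (in metastases) and Dnajb9 (in disseminated cells) did not pass the test, Atf4 was higher in metastases than in each of the other 3 groups, and Asns and the brighter feature of Trib3 were lower in carcinomas and in disseminated cells than in adenomas. With the main processing, Herpud1 rose only in disseminated cells against carcinomas and Atf3 only in metastases against disseminated cells, while Xbp1 and Ddit3 passed the test in no comparison. With the macrophage level as a covariate, the rises of Hspa5, Hsp90b1, Dnajb9 and Herpud1 against carcinomas did not pass the test, as given below. A gene is said to rise or fall where its Benjamini-Hochberg adjusted p over all 28786 genes, from limma, was below 0.05.

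Between carcinomas and adenomas 0 genes of the 10 rose and 2 fell, against 6.91% and 4.77% of all genes. Between disseminated cells and adenomas 0 rose and 2 fell, against 8.30% and 12.2%. Between metastases and adenomas 2 rose and 1 fell, against 13.1% and 15.5%. Between disseminated cells and carcinomas 4 rose and 0 fell, against 9.20% and 17.3%. Between metastases and carcinomas 5 rose and 0 fell, against 8.0% and 14.0%. Between metastases and disseminated cells 2 rose and 0 fell, against 6.91% and 6.15%. Metastases against carcinomas was the comparison with the highest median change of the 10 genes, 1.11 on the log2 scale against -0.05 for all genes, and all 10 had a positive change, whether or not it passed the test. The medians of the 10 genes were -0.43 for carcinomas against adenomas, 0.13 for disseminated cells against adenomas, 0.56 for metastases against adenomas, 0.50 for disseminated cells against carcinomas and 0.35 for metastases against disseminated cells. These 6 comparisons share 4 groups of arrays and are not independent. Adenomas and disseminated cells were hybridized on 3 slides and scanned on 1 day, and carcinomas and metastases on 3 other slides scanned on another day, so for the 4 comparisons across these sets slide and scan day cannot be told apart from the groups.

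**Figure D1:**
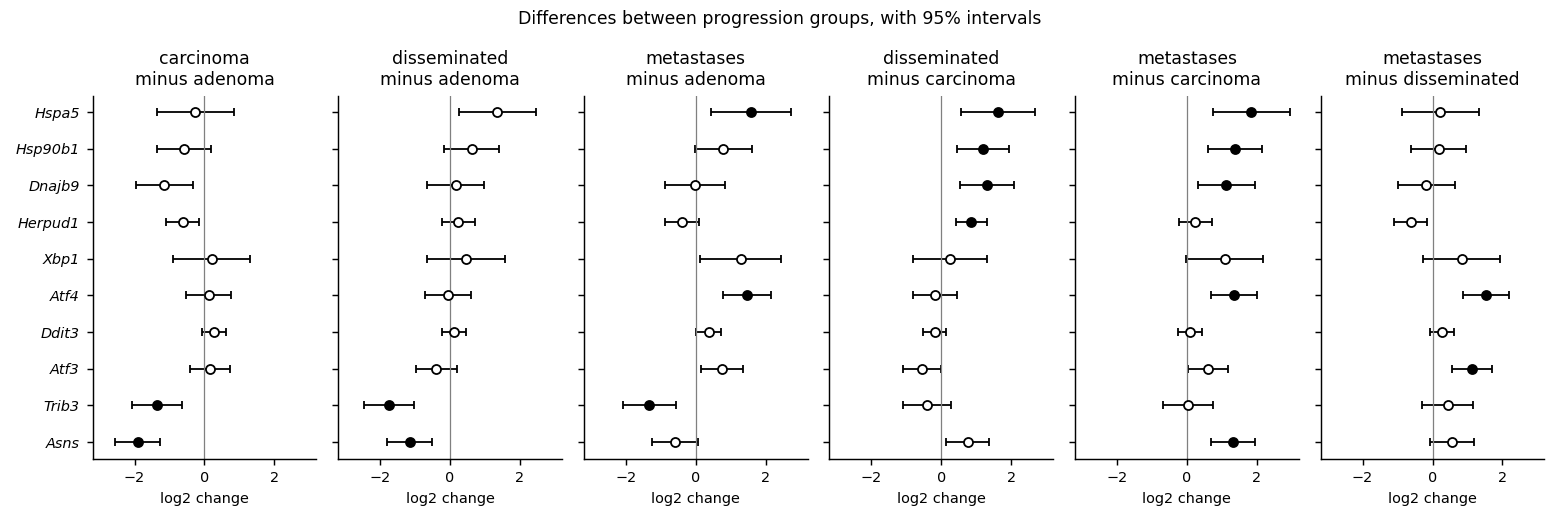
Log2 change of each of the 10 genes (x axis, with its 95% confidence interval from the limma model) in the 6 progression comparisons (panels), where a filled point marks an adjusted p below 0.05. Changes of Asns and Trib3 are negative in both panels that set carcinomas and disseminated cells against adenomas, and all 10 points lie above 0 for metastases against carcinomas.

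Hspa5 encodes BiP, the main Hsp70 chaperone of the endoplasmic reticulum and the protein that holds the stress sensors inactive. Its level was -1.15, -1.01, -2.17, -2.21 and -1.39 in adenomas 1 to 5 and ranged from -2.39 over a median of -2.06 to -0.51 in carcinomas, where carcinoma 6 was the highest. In disseminated cells it ranged from -1.66 over -0.25 to 1.46, and in metastases 1 to 5 it was 0.22, 0.25, 0.56, 0.91 and -1.98. All metastases but the fifth lay above every adenoma and carcinoma, and the fifth lay among the carcinomas. The difference between metastases and carcinomas was 1.84 (SE 0.52, adjusted p = 0.0165), a 3.59-fold change, and that between disseminated cells and carcinomas was 1.62 (SE 0.50, adjusted p = 0.0218), a 3.07-fold change. Metastases also exceeded adenomas by 1.58 (SE 0.55, adjusted p = 0.0365), a call that was lost when any 1 of 7 arrays was left out (adenomas 3, 4 and 5 and metastases 1 to 4, adjusted p from 0.0509 to 0.0973). The call against carcinomas for disseminated cells was lost without carcinoma 2 or disseminated sample 6 (adjusted p from 0.0501 to 0.0513). With the macrophage level as a covariate this change became 0.30 (adjusted p = 0.841), and the calls of Hspa5 in metastases were lost too. Disseminated cells against adenomas gave 1.35 (SE 0.52, adjusted p = 0.0733), and 2 leave-outs (disseminated sample 4 or metastasis sample 5) brought it below 0.05.

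Hsp90b1 encodes Grp94, the Hsp90 chaperone of the same compartment. Its level was -1.95, -1.88, -2.04, -2.38 and -1.95 in adenomas 1 to 5, from -3.12 to -1.82 with a median of -2.79 in carcinomas, and from -2.40 over -1.50 to -0.07 in disseminated cells. In metastases 1 to 5 it was -1.02, -0.83, -1.14, -0.58 and -2.68, so again the fifth was the exception and the other 4 lay above every adenoma and carcinoma. It rose by 1.38 from carcinomas to metastases (SE 0.37, adjusted p = 0.0121, 2.60-fold) and by 1.21 from carcinomas to disseminated cells (SE 0.35, adjusted p = 0.0163, 2.31-fold). Against adenomas, metastases differed by 0.79 (SE 0.39, adjusted p = 0.138), and by 1.15 (adjusted p = 0.0172) without metastasis sample 5. A second, dimmer feature lies at chr10:86256795-86256854 (build mm7, minus strand), and the first at chr10:86249236-86249295. The dimmer feature gave 1.23 for disseminated cells against carcinomas (adjusted p = 0.00294) and 0.68 for metastases against carcinomas (adjusted p = 0.0971), and it fell from adenomas to carcinomas by 1.38 (adjusted p = 0.00453), where the brighter one gave -0.59 (adjusted p = 0.322). For metastases against adenomas the dimmer feature gave -0.70 (adjusted p = 0.0861), opposite in sign to the brighter one.

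Dnajb9 encodes ERdj4, a DnaJ co-chaperone of BiP and a target of Xbp1. Its level was 1.54, 2.00, 1.17, 0.58 and 0.63 in adenomas 1 to 5 and from -0.48 over -0.13 to 1.18 in carcinomas, with carcinoma 6 the highest. It ranged from -0.11 over 1.67 to 2.16 in disseminated cells and was 1.40, 1.09, 0.87, 1.90 and 0.55 in metastases 1 to 5. Without carcinoma 6 the highest carcinoma stood at 0.02, below every adenoma and metastasis. Disseminated cells exceeded carcinomas by 1.31 (SE 0.37, adjusted p = 0.0125) and metastases exceeded them by 1.13 (SE 0.39, adjusted p = 0.0408), while carcinomas against adenomas gave -1.15 (SE 0.39, adjusted p = 0.0577). Without carcinoma 6 that last change became -1.38 (adjusted p = 0.0215). The call for metastases was lost without any 1 of 9 arrays (carcinomas 1 to 5 or metastases 1 to 4, adjusted p from 0.0569 to 0.111), although both other Dnajb9 features passed the test there, at 1.09 (adjusted p = 0.0177) and 1.79 (adjusted p = 0.0179). For disseminated cells against carcinomas they gave -0.10 (adjusted p = 0.853) and 1.39 (adjusted p = 0.0430), so 1 of the 3 features did not share that rise. The same feature was higher in metastases than in disseminated cells by 1.19 (adjusted p = 0.0167), where the brightest one gave -0.18 (adjusted p = 0.819) and the third 0.40 (adjusted p = 0.684).

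**Figure D2:**
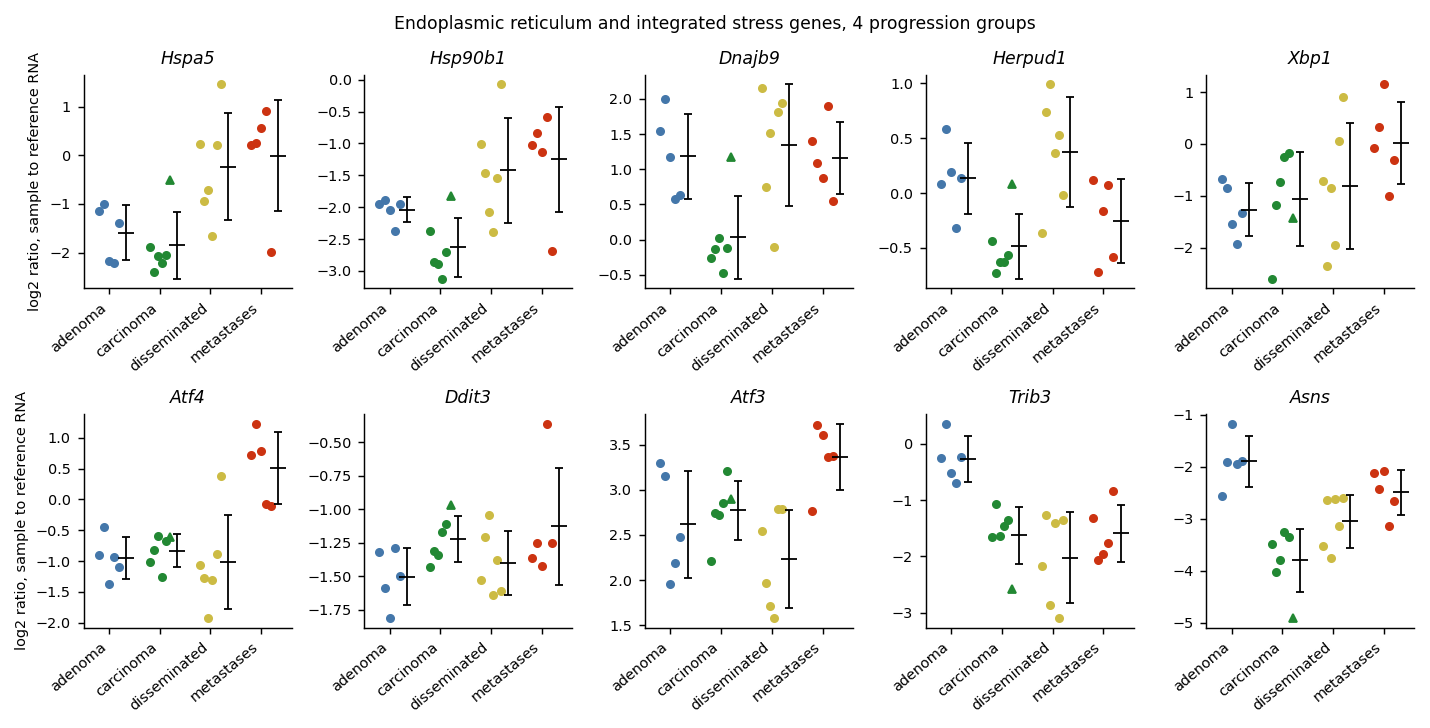
Log2 ratio of sample to reference (y axis) of each of the 10 genes (panels) on the 22 progression arrays, by group, where points are arrays, a triangle marks carcinoma 6 and black bars give the mean ± SD. The metastases of Atf4 lie above all carcinomas and adenomas, the adenomas of Trib3 and Asns lie above all carcinomas, and the fifth metastasis sample is the low point of Hspa5 at -1.98 and of Hsp90b1 at -2.68.

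Herpud1 encodes a membrane protein that serves the degradation of misfolded proteins from the endoplasmic reticulum. Its level was 0.08, 0.58, 0.19, -0.32 and 0.14 in adenomas 1 to 5, from -0.73 over -0.59 to 0.08 in carcinomas, from -0.36 over 0.45 to 0.99 in disseminated cells, and 0.12, -0.72, -0.16, 0.07 and -0.58 in metastases 1 to 5. The groups overlapped, and carcinoma 6 was again the highest carcinoma, the next one being at -0.44. It rose by 0.86 from carcinomas to disseminated cells (SE 0.21, adjusted p = 0.00603, 1.82-fold). Metastases differed from carcinomas by 0.23 (SE 0.22, adjusted p = 0.521) and from disseminated cells by -0.63 (SE 0.22, adjusted p = 0.0712), and carcinomas differed from adenomas by -0.62 (SE 0.22, adjusted p = 0.0775), which became -0.73 (adjusted p = 0.0390) without carcinoma 6.

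Xbp1, the transcription factor that is activated by Ire1 and is also needed in secretory cells such as mammary epithelium, spread widely within groups. Its level was -0.68, -0.85, -1.54, -1.93 and -1.33 in adenomas 1 to 5, from -2.59 over -0.96 to -0.17 in carcinomas, from -2.34 over -0.78 to 0.90 in disseminated cells, and -0.07, 0.33, 1.15, -1.01 and -0.30 in metastases 1 to 5. The values of all 4 groups overlapped. Metastases differed from adenomas by 1.29 (SE 0.55, adjusted p = 0.0871), from carcinomas by 1.08 (SE 0.53, adjusted p = 0.155) and from disseminated cells by 0.83 (SE 0.53, adjusted p = 0.334). The change against adenomas passed the test under 2 of 16 other processing settings (adjusted p down to 0.0334).

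Atf4 is the transcription factor at the center of the integrated stress response. Its level was -0.90, -0.45, -1.37, -0.94 and -1.10 in adenomas 1 to 5, between -1.25 and -0.60 in carcinomas, from -1.92 over -1.17 to 0.38 in disseminated cells, and 0.72, 1.23, 0.79, -0.08 and -0.10 in metastases 1 to 5. Every metastasis lay above every adenoma and carcinoma, and 1 disseminated sample reached into the range of the metastases. Metastases exceeded adenomas by 1.46 (SE 0.32, adjusted p = 0.00234, 2.76-fold), carcinomas by 1.34 (SE 0.31, adjusted p = 0.00487, 2.53-fold) and disseminated cells by 1.53 (SE 0.31, adjusted p = 0.00324, 2.88-fold). The call against disseminated cells was lost under 2 of 16 other processing settings (adjusted p up to 0.0984). The other 3 comparisons of Atf4 had changes between -0.18 and 0.12, with adjusted p of 0.691 or more.

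Ddit3 encodes Chop, a C/EBP-family factor that is raised by Atf4 and is tied to death under prolonged stress. Its level was -1.32, -1.59, -1.81, -1.29 and -1.50 in adenomas 1 to 5, from -1.43 over -1.24 to -0.97 in carcinomas, from -1.64 over -1.46 to -1.04 in disseminated cells, and -1.36, -1.25, -1.42, -0.36 and -1.25 in metastases 1 to 5. Apart from metastasis sample 4 all values lay between -1.81 and -0.97. The change nearest to the threshold was that of metastases against adenomas, 0.38 (SE 0.17, adjusted p = 0.108). It passed the test under 3 of 16 other processing settings (adjusted p down to 0.0101).

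Atf3 is a stress-induced repressor of the same factor family that also responds to cytokines and to growth signals. Its level was 3.30, 3.16, 1.96, 2.19 and 2.48 in adenomas 1 to 5, from 2.21 over 2.80 to 3.21 in carcinomas, from 1.58 over 2.26 to 2.80 in disseminated cells, and 2.77, 3.72, 3.61, 3.37 and 3.38 in metastases 1 to 5. Metastases and disseminated cells met only where the lowest metastasis fell just under the highest disseminated sample. That difference was 1.14 (SE 0.27, adjusted p = 0.00929, 2.20-fold), and its call was lost under 1 of 16 other processing settings (adjusted p = 0.0830). Metastases against adenomas gave 0.75 (SE 0.29, adjusted p = 0.0545) and metastases against carcinomas 0.60 (SE 0.27, adjusted p = 0.128). The first of these 2 changes passed the test under 4 of 16 such settings and without any 1 of 5 arrays (adjusted p from 0.0225 to 0.0482). The second passed it under 2 of 17 settings.

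Trib3 encodes a pseudokinase that is raised by Atf4 and Chop and restrains Akt and Atf4 in turn. Its brighter feature stood at -0.26, 0.36, -0.52, -0.70 and -0.23 in adenomas 1 to 5, from -2.58 over -1.55 to -1.07 in carcinomas, from -3.09 over -1.78 to -1.26 in disseminated cells, and at -1.32, -2.07, -1.96, -1.77 and -0.84 in metastases 1 to 5. Every adenoma lay above every sample of the other 3 groups. Against adenomas it was lower by 1.36 in carcinomas (log2 change -1.36, SE 0.34, adjusted p = 0.0156, 2.56-fold), by 1.75 in disseminated cells (log2 change -1.75, SE 0.34, adjusted p = 0.00227, 3.37-fold) and by 1.32 in metastases (log2 change -1.32, SE 0.36, adjusted p = 0.00925, 2.50-fold).

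The second Trib3 feature did not share this fall. The brighter feature is at chr2:152078476-152078535 and the dimmer one at chr2:152079146-152079205 (build mm7, minus strand for both). Mean levels of the dimmer feature were -0.70 in adenomas, -0.51 in carcinomas, -0.65 in disseminated cells and 0.13 in metastases. It rose by 0.83 from adenomas to metastases (adjusted p = 0.0199), where the brighter feature fell, and by 0.78 from disseminated cells to metastases (adjusted p = 0.0382), and it gave 0.19 (adjusted p = 0.657) for carcinomas and 0.04 (adjusted p = 0.924) for disseminated cells against adenomas. With the features of each gene averaged, Trib3 changed by -0.58 from adenomas to carcinomas (adjusted p = 0.0699), by -0.85 from adenomas to disseminated cells (adjusted p = 0.00699) and by -0.25 from adenomas to metastases (adjusted p = 0.423), so that the call in disseminated cells alone remained. The fall of Trib3 was read by 1 of its 2 features, and which of the features follows the whole transcript was not tested.

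**Figure D3:**
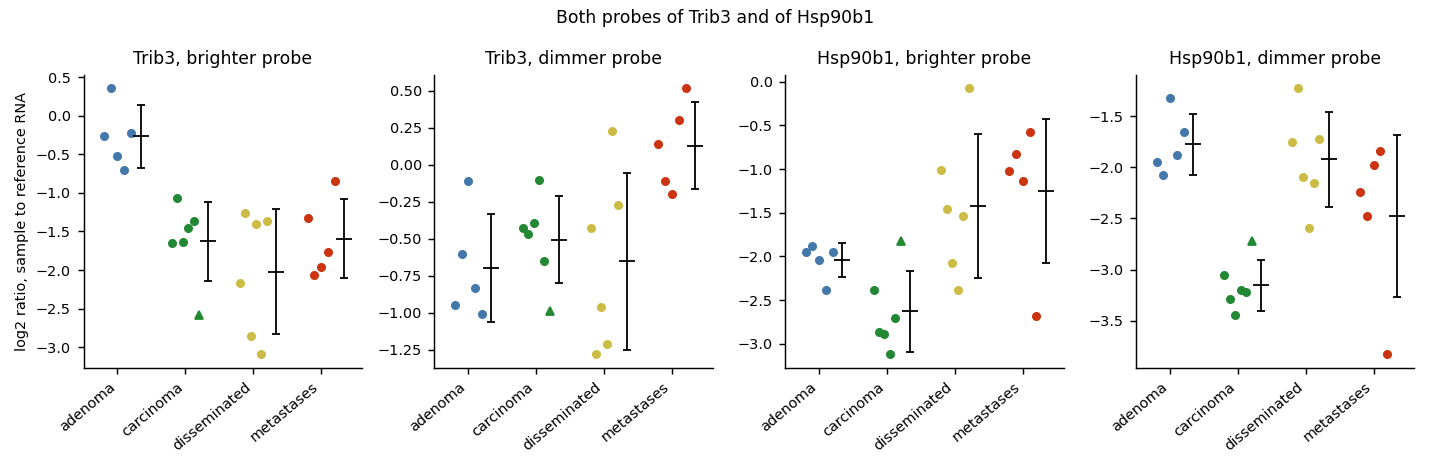
Log2 ratio of sample to reference (y axis) on the 22 progression arrays, by group, for the brighter and dimmer features of Trib3 and of Hsp90b1 (panels, each with its own scale), where points are arrays, a triangle marks carcinoma 6 and black bars give the mean ± SD. For Trib3 the adenomas are the highest group on the brighter feature, at a mean of -0.27, while on the dimmer feature the metastases are, at a mean of 0.13.

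Asns encodes asparagine synthetase, a classical Atf4 target of the amino acid response. Its level was -2.56, -1.91, -1.17, -1.94 and -1.90 in adenomas 1 to 5, from -4.91 over -3.64 to -3.26 in carcinomas, from -3.76 over -2.89 to -2.61 in disseminated cells, and -2.13, -2.43, -2.08, -3.14 and -2.67 in metastases 1 to 5. Every carcinoma lay below every adenoma and every metastasis, and every disseminated sample lay below every adenoma. Asns was lower in carcinomas than in adenomas (log2 change -1.91, SE 0.30, adjusted p = 0.000786, 3.75-fold), the lowest adjusted p of any of the 10 genes in any comparison, in a pair of groups whose T and NK cell markers also did not overlap, and it was lower in disseminated cells than in adenomas (-1.16, SE 0.30, adjusted p = 0.0116, 2.23-fold). From carcinomas to metastases it rose by 1.31 (SE 0.30, adjusted p = 0.00485). Metastases against adenomas gave -0.59 (SE 0.32, adjusted p = 0.172), and disseminated cells against carcinomas 0.75 (SE 0.29, adjusted p = 0.0608). Asns has 1 feature, so its fall rests on no second reading.

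The order of group means differed between the genes. Hspa5 averaged -1.85 ± 0.68 (SD, n = 6) in carcinomas, -1.59 ± 0.57 (n = 5) in adenomas, -0.24 ± 1.10 (n = 6) in disseminated cells and -0.01 ± 1.14 (n = 5) in metastases, where neither the lower pair nor the upper pair of neighbors passed the test of its difference. Asns averaged -3.81 ± 0.61 in carcinomas, -3.05 ± 0.51 in disseminated cells, -2.49 ± 0.44 in metastases and -1.90 ± 0.49 in adenomas, and none of the 3 neighboring steps in this order passed the test. Atf4 averaged 0.51 ± 0.58 in metastases, with the other groups between -1.01 and -0.83.

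Macrophage markers rose in the same groups as the chaperones, and how the calls depend on them was measured in 2 ways, the first of which was chosen after the marker levels of these arrays had been seen. In the first, the 4 arrays outside the disseminated group whose macrophage level was above 2 were left out (carcinoma 6 and metastases 1, 3 and 4), which left 2 metastases and all 6 disseminated samples, whose macrophage levels are all high. Between disseminated cells and carcinomas the 4 calls remained, for Hspa5 (1.89, adjusted p = 0.00713), Hsp90b1 (1.37, adjusted p = 0.00881), Dnajb9 (1.54, adjusted p = 0.00380) and Herpud1 (0.97, adjusted p = 0.00181), and between disseminated cells and adenomas Trib3 (-1.75, adjusted p = 0.00174) and Asns (-1.16, adjusted p = 0.00402) kept theirs. Then 0 genes of the 10 passed the test between metastases and carcinomas, where 1647 of all 28786 genes passed, against 6339 with every array kept. The changes were 1.44 for Atf4 (adjusted p = 0.0718), 1.03 for Asns (adjusted p = 0.0886), 1.25 for Hspa5 (adjusted p = 0.282), 1.04 for Hsp90b1 (adjusted p = 0.232) and 1.02 for Dnajb9 (adjusted p = 0.235). All 5 kept their positive sign on 2 metastases. Against adenomas Atf4 alone remained called in metastases, at 1.52 (adjusted p = 0.0404), where 3338 of all genes passed, against 8248 with every array kept. Against disseminated cells Atf4 (1.58, adjusted p = 0.0321) and Atf3 (1.32, adjusted p = 0.0384) remained called in metastases while Herpud1 fell (-1.02, adjusted p = 0.0260). From adenomas to carcinomas 4 genes of the 10 fell, where 4.77% of all genes fell with every array kept. The falls were 1.69 for Asns (adjusted p = 0.00148), 1.38 for Dnajb9 (adjusted p = 0.0283), 1.17 for Trib3 (adjusted p = 0.0459) and 0.73 for Herpud1 (adjusted p = 0.0375).

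In the second, the macrophage level of each array entered the limma model as a covariate. Between disseminated cells and carcinomas Hspa5 (0.30, adjusted p = 0.841), Hsp90b1 (0.43, adjusted p = 0.666), Dnajb9 (0.36, adjusted p = 0.715) and Herpud1 (0.41, adjusted p = 0.460) then lost their calls, and Asns gained one (1.44, adjusted p = 0.0316). Of the carcinomas only carcinoma 6 reached the macrophage levels of disseminated cells, so marker and group can hardly be told apart in this comparison. Between metastases and carcinomas Atf4 (1.36, adjusted p = 0.0242) and Asns (1.72, adjusted p = 0.00219) kept theirs, and Hspa5 (1.07, adjusted p = 0.181), Hsp90b1 (0.92, adjusted p = 0.128) and Dnajb9 (0.57, adjusted p = 0.357) did not. Between disseminated cells and adenomas Trib3 (-0.97, adjusted p = 0.502) and Asns (-0.36, adjusted p = 0.804) lost theirs, in a comparison where the macrophage levels of the groups do not overlap, so that marker and group cannot be told apart. Between metastases and adenomas Atf4 kept its call (1.49, adjusted p = 0.0166) and Hspa5 (0.61, adjusted p = 0.507) and Trib3 (-0.82, adjusted p = 0.171) lost theirs, and between metastases and disseminated cells Atf4 (1.51, adjusted p = 0.00607) and Atf3 (1.15, adjusted p = 0.0148) kept theirs. From adenomas to carcinomas Asns and Trib3 kept their falls and Dnajb9 (-1.29, adjusted p = 0.0130) and Herpud1 (-0.69, adjusted p = 0.0316) joined them. Carcinoma 6, a primary tumor with a macrophage level of 4.77, held the highest carcinoma values of Hspa5, Hsp90b1, Dnajb9 and Herpud1 and the lowest of Trib3 (-2.58) and Asns (-4.91). Of the metastases with few macrophage markers, sample 2 stood at 0.25 for Hspa5, -0.83 for Hsp90b1 and 1.23 for Atf4, above every adenoma and carcinoma for each, and sample 5 at -1.98, -2.68 and -0.10, above them for Atf4 alone. The part of macrophages in these differences was not tested beyond these values.

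**Figure D4:**
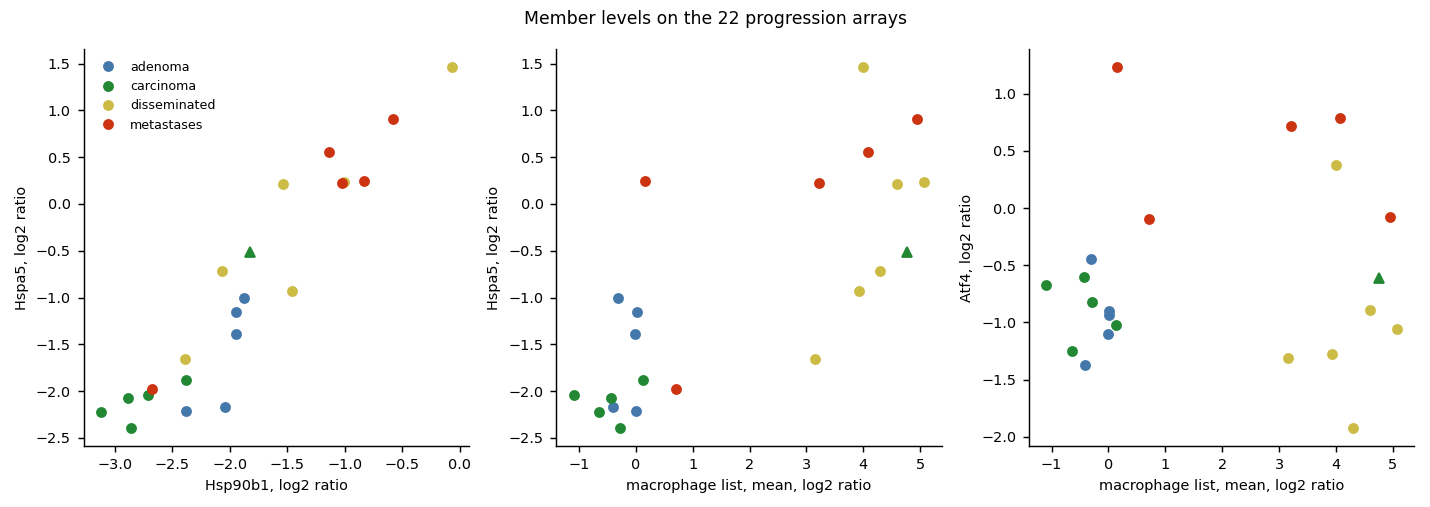
Log2 ratio of Hspa5 (y axis) against that of Hsp90b1 (x axis, left), and log2 ratios of Hspa5 (middle) and Atf4 (right) against the mean log2 ratio of 14 macrophage markers (x axis), on the 22 progression arrays, colored by group, with a triangle for carcinoma 6. Disseminated cells lie at macrophage levels of 3.16 to 5.07 and adenomas at -0.41 to 0.01, while metastases 2 and 5, at 0.16 and 0.71, lie near the primary tumors on this axis.

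Within slides the differences could be set free of slide and scan for 2 pairs of progression groups. For metastases against carcinomas, Hspa5 was higher on 3 of 3 slides (differences of 1.52 to 2.54), as were Hsp90b1 (1.07 to 1.83), Dnajb9 (0.57 to 1.77), Atf4 (1.13 to 1.88), Asns (1.0 to 1.70), Xbp1 (1.12 to 1.15) and Atf3 (0.60 to 0.70). Herpud1 was higher on 2 of 3, and Ddit3 and Trib3 on 1 of 3. For disseminated cells against adenomas, Trib3 was lower on 3 of 3 slides (-3.04 to -0.81), as were Asns (-1.54 to -0.82) and Atf3 (-0.57 to -0.08), and Hspa5 (0.87 to 2.53) and Hsp90b1 (0.11 to 1.62) were higher on 3 of 3. The other 5 genes were higher on 2 of 3. The rises against carcinomas in disseminated cells, and the falls from adenomas to carcinomas, have no such within-slide value.

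Over the 22 progression arrays the levels of the 2 abundant chaperones followed each other. Hspa5 and Hsp90b1 correlated at r = 0.943 over all arrays and at 0.923 after group means were removed, and Dnajb9 correlated with Hspa5 at 0.753 (0.784 within groups) and with Hsp90b1 at 0.770 (0.685). Atf4 and Atf3 correlated at 0.742 (0.557), Xbp1 and Atf3 at 0.675 (0.704), and Trib3 and Asns at 0.612 (0.446), and the most negative pair was Ddit3 and Asns at -0.484 (-0.619). These arrays share the reference RNA, the slides and the spread of macrophage signal. Among the 11072 genes well above background on every progression array, the profile most like that of Hspa5 was Hsp90b1 (0.943). It was followed by Septin7 (0.938), Eif4e (0.935), Hnrnpf (0.926) and Tgfbr1 (0.925). The profiles most like the brighter Trib3 feature were Slc35g1 (0.878), Tars (0.869), Fblim1 (0.864), Dnmt1 (0.862) and Cenpm (0.861). Over the 16 chemotherapy arrays Hspa5 and Hsp90b1 correlated at 0.673 (0.713 within groups), Dnajb9 and Herpud1 at 0.695 (0.741) and Xbp1 and Asns at 0.671 (0.728), while Hsp90b1 ran opposite to Atf4 at -0.674 (-0.574 within groups) and to Atf3 at -0.578 (-0.427), and Atf3 to Asns at -0.515 (-0.598). There the profiles most like Hspa5 were Erp44 (0.853), which retains proteins in the secretory pathway, Yipf5, Cdc37l1 (0.830), Ero1b (0.798), an oxidase of the endoplasmic reticulum, and Trmt1 (0.795).

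The wider pathways were read through 9 lists of genes. Shares in parentheses are those of all genes that rose and that fell in the same comparison, and a median change is that of the list, against -0.05 for all genes between metastases and carcinomas. Of 18 chaperones and folding enzymes of the endoplasmic reticulum, 3 rose and 2 fell between metastases and carcinomas (8.0% and 14.0%, median change 0.27), 5 rose and 3 fell between metastases and adenomas (13.1% and 15.5%), and 3 rose and 1 fell between disseminated cells and carcinomas (9.20% and 17.3%). Calr, the lectin chaperone calreticulin, fell by 1.25 from adenomas to carcinomas (adjusted p = 0.00133) and by 2.32 from adenomas to metastases (adjusted p = 2.46e-06), where P4hb, a protein disulfide isomerase, rose by 2.73 (adjusted p = 0.00367) and Sdf2l1 by 1.81 (adjusted p = 0.00714). Ero1a, which oxidizes these isomerases, rose by 1.32 from adenomas to carcinomas (adjusted p = 0.000549) and by 1.65 from adenomas to metastases (adjusted p = 2.83e-05).

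Of 17 genes of degradation from the endoplasmic reticulum, 6 rose and 3 fell between metastases and carcinomas (8.0% and 14.0%, median change 0.46), and 6 rose and 4 fell between metastases and adenomas (13.1% and 15.5%). Edem3, which trims sugars of misfolded glycoproteins, rose by 2.66 from adenomas (adjusted p = 0.000184) and by 1.84 from carcinomas (adjusted p = 0.00384) to metastases, and Sel1l, a partner of the Hrd1 ligase, by 2.64 from adenomas (adjusted p = 0.00149), while Os9, a lectin of the same pathway, fell by 1.54 (adjusted p = 2.29e-05). Between adenomas and carcinomas 2 rose and 5 fell (6.91% and 4.77%), among them Ubxn4, which fell by 0.80 (adjusted p = 0.000375), and Vcp, the segregase that pulls proteins out of the membrane, which fell by 0.79 (adjusted p = 0.0326). Of 20 genes of protein entry and secretion, 5 rose and 3 fell between metastases and carcinomas (8.0% and 14.0%, median change 0.50). Sec62, a partner of the translocon, rose there by 1.71 (adjusted p = 0.00617) and Ssr4, a subunit next to the translocon, fell by 1.65 (adjusted p = 2.64e-05). Of 16 sensors and transducers, 2 rose and 3 fell in that comparison, and 2 rose and 2 fell between metastases and disseminated cells (6.91% and 6.15%), where Eif2ak2, the kinase Pkr that senses viral RNA, rose by 2.18 (adjusted p = 0.000181).

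Of 17 targets of Atf4 in amino acid synthesis and transport, 0 rose and 4 fell from adenomas to carcinomas (6.91% and 4.77%), and 2 rose and 7 fell from adenomas to disseminated cells (8.30% and 12.2%). Mthfd2, a mitochondrial folate enzyme, fell by 1.70 (adjusted p = 0.00645), Phgdh, the first enzyme of serine synthesis, by 1.52 (adjusted p = 0.0330) and Slc38a2, an amino acid transporter, by 1.15 (adjusted p = 0.0182) from adenomas to carcinomas. From carcinomas to metastases 4 rose and 2 fell (8.0% and 14.0%), with Slc38a2 higher by 2.45 (adjusted p = 7.00e-05) and Mthfd2 by 1.78 (adjusted p = 0.00233), but Phgdh stayed 2.20 below adenomas (log2 change -2.20, adjusted p = 0.00175). Of 13 aminoacyl tRNA synthetases, 0 rose and 3 fell from adenomas to carcinomas (6.91% and 4.77%), among them Wars, which fell by 0.99 (adjusted p = 0.00254), and 5 rose and 0 fell from carcinomas to metastases (8.0% and 14.0%), among them Nars (1.66, adjusted p = 0.00206) and Gars (1.26, adjusted p = 0.00264).

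Of 17 stress-induced regulators downstream of Atf4 and Ddit3, 3 rose and 1 fell from adenomas to carcinomas (6.91% and 4.77%) and 6 rose and 0 fell from carcinomas to metastases (8.0% and 14.0%, median change -0.06). Chac1, which degrades glutathione, fell by 2.66 from adenomas to carcinomas (adjusted p = 0.000764) and rose by 2.18 from carcinomas to metastases (adjusted p = 0.00157). Ddit4, an inhibitor of mTORC1 that hypoxia also raises, ran the other way, with a rise of 3.13 from adenomas to carcinomas (adjusted p = 0.00991) and a fall of 3.65 from carcinomas to disseminated cells (adjusted p = 0.00102). The eIF2alpha phosphatase subunits Ppp1r15a and Ppp1r15b rose by 2.11 (adjusted p = 0.00280) and 1.87 (adjusted p = 0.00135) from adenomas to metastases. Of 13 cytosolic and mitochondrial heat shock genes, 5 rose and 0 fell from carcinomas to metastases (8.0% and 14.0%), led by Hspa8 (1.66, adjusted p = 0.00313), and 0 rose and 5 fell from carcinomas to disseminated cells (9.20% and 17.3%). Of 21 immediate early genes, 2 rose and 2 fell from carcinomas to metastases (8.0% and 14.0%) and 6 rose and 2 fell from carcinomas to disseminated cells (9.20% and 17.3%). Of the 111 changes of the genes named from the 9 lists in these 6 comparisons, 62 kept their call with the macrophage level as a covariate, 46 lost it and 3 changed sign, and 67 kept it with the 4 arrays of high macrophage level left out. Of the changes given above, those of Sdf2l1 (0.98, adjusted p = 0.172), Ppp1r15a (1.40, adjusted p = 0.0727) and Phgdh (-1.44, adjusted p = 0.0511) from adenomas to metastases, of Sec62 from carcinomas to metastases (1.47, adjusted p = 0.0529) and of Ddit4 from carcinomas to disseminated cells (-2.32, adjusted p = 0.176) lost their calls with the covariate. With the 4 arrays left out the calls of Sdf2l1 (adjusted p = 0.192), Ppp1r15a (0.108), P4hb (0.0716) and Sel1l (0.101) from adenomas to metastases were lost. So were those of Sec62 (adjusted p = 0.118), Edem3 (0.0597), Mthfd2 (0.130), Gars (0.0682) and Hspa8 (0.0505) from carcinomas to metastases and of Vcp (0.0779) and Phgdh (0.0573) from adenomas to carcinomas.

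The chemotherapy experiment asks what distinguishes tumor cells that remain after TAC, and those of tumors that grew back, from untreated tumor cells. Few genes of any kind passed the test, and none of the 10 did in any of the 3 comparisons. Between residual and untreated tumors 0 of the 10 rose and 0 fell, against 0.170% and 0.0243% of all genes, and 3 had an unadjusted p below 0.05 (all genes 9.11%). Between relapsed and untreated tumors 0 rose and 0 fell, against 0.0104% and 0.00695%, and 0 had an unadjusted p below 0.05 (all genes 7.63%). Between relapsed and residual tumors 0 rose and 0 fell, against 0.00695% and 0.264%, and 3 had an unadjusted p below 0.05 (all genes 7.73%). An ordinary equal-variance test on each gene alone, without limma's moderation, called 0 of the 10 in each comparison. It called few genes of any kind, 29 of all 28786 between relapsed and residual tumors. Between relapsed and untreated tumors no other processing setting called more than 12 genes. A count of 0 among 10 genes was therefore near the share of all genes and adds little. The median changes of the 10 genes were 0.11, 0.17 and -0.04 on the log2 scale against -0.00, 0.01 and 0.02 for all genes, in this order of comparisons, which share their groups.

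Atf3 had the lowest adjusted p of the 10 genes in this experiment. Its level ranged from 2.55 over a median of 3.12 to 3.30 in untreated tumors and from 3.14 over 3.78 to 4.22 in residual tumors, and it was 2.82, 3.70, 3.24 and 3.12 in relapsed tumors 1 to 4. Most residual values lay above the untreated ones, but the groups overlapped. The difference between residual and untreated tumors was 0.68 (SE 0.19, adjusted p = 0.223), and that between relapsed and residual tumors -0.48 (adjusted p = 0.590). With the macrophage level as a covariate the first became 0.78 (adjusted p = 0.0498), the only such alternative that called any of the 10 here.

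Atf4 and Ddit3 were the other genes with an unadjusted p below 0.05 between residual and untreated tumors. Atf4 ranged from -1.89 over -1.27 to -1.08 in untreated tumors and from -1.37 over -1.05 to -0.56 in residual tumors, and stood at -1.38, -1.31, -1.34 and -1.28 in the relapsed ones. Ddit3 ranged from -2.03 over -1.53 to -1.28 and from -1.49 over -1.37 to -0.87, and stood at -1.48, -1.59, -1.54 and -1.56 in the relapsed ones. The relapsed values of both genes lay close together and the other groups overlapped. Residual minus untreated was 0.41 for Atf4 (adjusted p = 0.431) and 0.32 for Ddit3 (adjusted p = 0.465). Slide and group can hardly be told apart here, since only 1 slide held both groups, with 1 untreated and 2 residual arrays. On that slide the differences were 0.01 for Atf4, 0.25 for Ddit3, 1.01 for Atf3, 0.82 for Dnajb9 and 0.33 for Herpud1. They were -0.01 for Hspa5, -0.41 for Hsp90b1, -0.26 for Xbp1, -0.79 for Trib3 and -0.74 for Asns.

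The chaperones and Asns passed the test in no comparison. Hspa5 ranged from -0.32 to 0.24 in untreated and from -0.31 to 0.40 in residual tumors, and was 0.78, -0.11, 0.14 and 0.13 in relapsed tumors. Hsp90b1 ranged from -0.73 over -0.14 to 0.31, from -0.75 over -0.43 to -0.30, and was 0.40, -0.38, -0.09 and -0.08, and relapsed minus residual was 0.43 (adjusted p = 0.576). Its dimmer feature gave -0.67 for residual against untreated tumors without overlap of the groups (adjusted p = 0.124) and -0.67 for relapsed against untreated tumors (adjusted p = 0.276), where the brighter feature gave -0.29 and 0.15. Asns ranged from -1.66 over -1.34 to -0.91 in untreated and from -2.07 over -1.38 to -0.80 in residual tumors and was -0.73, -0.97, -0.83 and -1.04 in relapsed tumors, and relapsed minus residual was 0.51 (adjusted p = 0.543). The ranges of the brighter features all overlap.

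Of the remaining genes, Dnajb9 averaged 0.57 ± 0.32 (SD, n = 6) in untreated, 1.01 ± 0.45 (n = 6) in residual and 0.89 ± 0.45 (n = 4) in relapsed tumors. Herpud1 averaged -0.46 ± 0.34, -0.27 ± 0.33 and -0.57 ± 0.34. Xbp1 averaged 1.14 ± 0.60, 1.14 ± 0.81 and 1.34 ± 0.71, and Trib3 -1.31 ± 0.34, -1.30 ± 0.28 and -1.25 ± 0.37. None of these 4 genes passed the test. The other Dnajb9 features gave 0.44 (adjusted p = 0.403) and 0.26 (adjusted p = 0.676) for residual against untreated tumors, where the brightest gave 0.44, and in the 3 comparisons the other Trib3 feature changed by -0.08 to 0.09 (adjusted p of 0.897 or more).

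**Figure D5:**
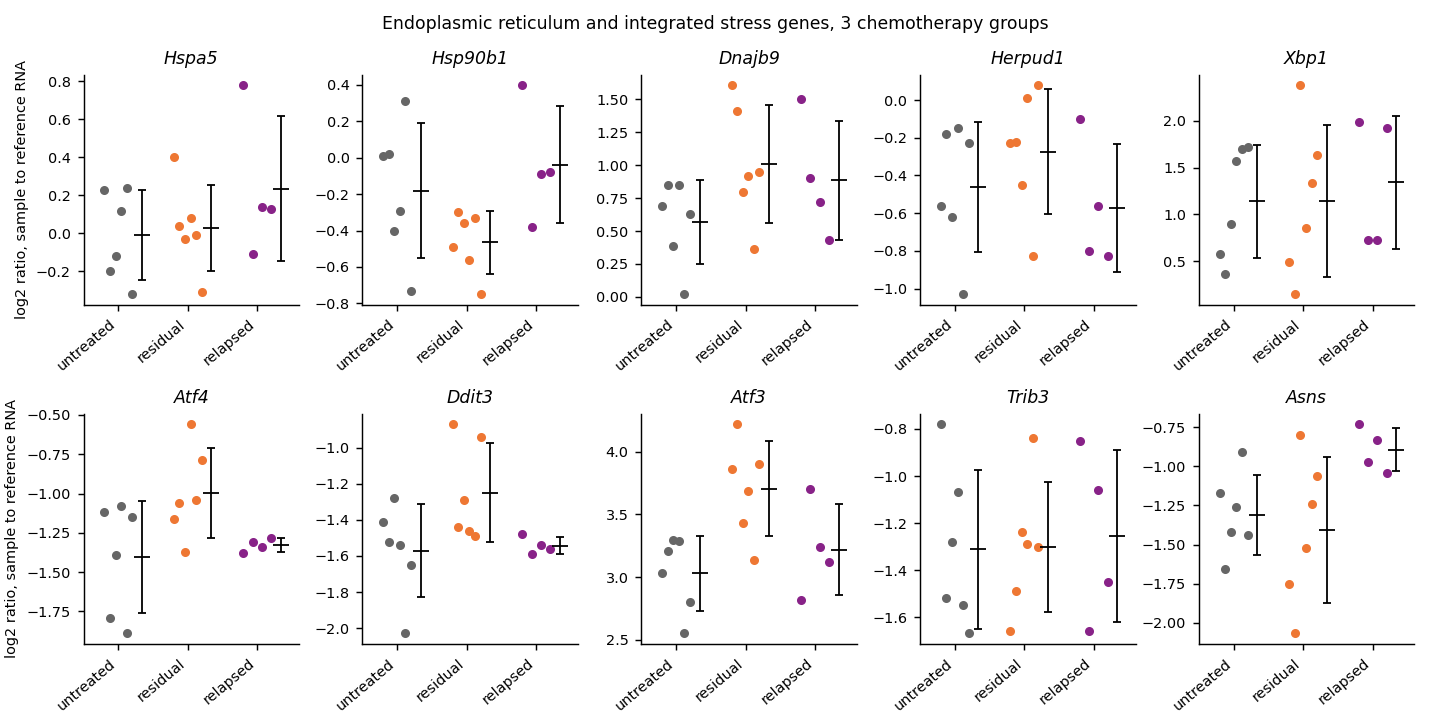
Log2 ratio of sample to reference (y axis) of each of the 10 genes (panels) on the 16 chemotherapy arrays, by group, where points are arrays and black bars give the mean ± SD. The 3 groups overlap in every panel, and residual tumors are highest for Atf3, at a median of 3.78 against 3.12 in untreated tumors.

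In the 9 lists, 1 gene passed the test in the chemotherapy experiment. Sesn2, a stress-induced regulator downstream of Atf4 that p53 also raises and that restrains mTORC1, averaged 0.07 ± 0.26 (SD, n = 6) in untreated and 1.09 ± 0.27 (n = 6) in residual tumors, without overlap, and rose by 1.02 (SE 0.17, adjusted p = 0.0254). Only 1 of the 5 slides held both untreated and residual tumors (1 and 2 arrays), so slide and group can hardly be told apart here, and with slides as a fixed block the change was 0.92 (adjusted p = 0.648). The call was also lost without any 1 of 7 arrays (untreated tumors 2 to 5 and residual tumors 1, 2 and 4, adjusted p from 0.054 to 0.0712), and with the probes of the gene averaged (0.70, adjusted p = 0.111). The other lists had no gene that passed. A positive change from untreated to residual tumors was found in 18 of 21 immediate early genes (median 0.40), 13 of 17 stress-induced regulators (median 0.28), 1 of 20 genes of protein entry and secretion (median -0.20) and 3 of 18 chaperones (median -0.18), against 48.9% of all genes. An unadjusted p below 0.05 was found for 10 of the regulators, 9 of the immediate early genes, 6 of the entry and secretion genes and 3 of the chaperones, against 9.11% of all genes. The other lists had positive changes in 8 of 17 degradation genes, 11 of 16 sensors and transducers, 7 of 17 amino acid targets of Atf4, 8 of 13 aminoacyl tRNA synthetases and 8 of 13 heat shock genes. In this order 2, 3, 3, 2 and 1 genes of these lists had an unadjusted p below 0.05. From residual to relapsed tumors a positive change was found in 1 of 21 immediate early genes (median -0.44), 5 of 17 regulators (median -0.24), 19 of 20 entry and secretion genes (median 0.29) and 17 of 18 chaperones (median 0.30), against 54.7%. In these lists 7, 4, 11 and 9 genes had an unadjusted p below 0.05 (all genes 7.73%). From untreated to relapsed tumors the same lists had 9 of 21 (median -0.12), 13 of 17 (median 0.11), 11 of 20 (median 0.05) and 15 of 18 (median 0.19) positive changes, against 53.9%. Positive changes were also found in 13 of 13 aminoacyl tRNA synthetases (median 0.19), 14 of 17 degradation genes and 14 of 17 amino acid targets of Atf4. In this order of lists 2, 2, 0, 0, 2, 3 and 2 genes had an unadjusted p below 0.05 (all genes 7.63%). These comparisons share their groups.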

How the data were processed

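The authors deposited Agilent Feature Extraction 10.7 files with the intensity of each spot and its local background in both channels, and a table of log2 ratios that they had background-corrected and loess-normalized. The intensity values were used here, and the deposited log2 ratios served as an alternative. With limma 3.58.1 (R 4.3.3), background was corrected by normexp (offset 50), arrays were normalized by loess (span 0.3, control and flagged spots at weight 0) and then by quantiles within each experiment, spots of a probe were averaged, and each gene name was read from its brightest probe. Of the probes, 22951 were named through accessions in the RefSeq table and 18223 by the name in the files. One linear model per experiment (lmFit, eBayes) held all its groups without covariates, and p-values were adjusted by Benjamini-Hochberg over 28786 genes. The linear model and the adjustment were tested on simulated gene levels with known changes, and the steps before them were not.

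The 10 genes, the 9 gene lists and the 11 marker lists were chosen with earlier results of these data known. From each list at most 4 genes per comparison are named, those that passed the test with the largest change and no overlap of groups. Likeness is Pearson's r over genes well above background on every array. Coordinates are those of the array files (build mm7), and promoters are RefSeq's (GRCm38.p6). The number of arrays limits the precision. Alternatives are given in the closing section.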

Additional observations from a re-analysis of the deposited data

Results flagged for a closer look

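In each group of 4 to 6 arrays, the level of each of the 10 genes and of the macrophage and luminal marker means was searched for a single array that stood far from the rest (Dixon's test). Of 84 groups of values 8 held such an array, and chance alone gives about 1 in 20. Carcinoma 6 stood apart for Hspa5 (-0.51, the nearest carcinoma at -1.88), Dnajb9 (1.18, nearest 0.02), Herpud1 (0.08, nearest -0.44) and the macrophage marker mean (4.77, nearest 0.13). Metastasis sample 5 stood apart for Hspa5 (-1.98, nearest 0.22) and Hsp90b1 (-2.68, nearest -1.14). Metastasis sample 4 stood apart for Ddit3 (-0.36, nearest -1.25) and for the luminal marker mean (0.29, nearest 3.1).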

How the results depend on the processing

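Of the called changes of the 10 genes, 256 values under other processing kept their direction and passed the test and 39 kept the direction only. With 1 array left out, 378 passed and 18 did not, and no call turned its sign. The number of the 10 genes called was 2 for carcinomas and 2 for disseminated cells against adenomas, 3 for metastases against adenomas, 4 for disseminated cells and 5 for metastases against carcinomas, and 2 for metastases against disseminated cells. At an adjusted p below 0.01 the first 2 counts became 1 each, and those against carcinomas became 1 for disseminated cells and 2 for metastases. With the macrophage level as a covariate they became 4 and 0 (carcinomas and disseminated cells against adenomas), 1 (metastases against adenomas), 1 and 2 (disseminated cells and metastases against carcinomas), and residual against untreated tumors went from 0 to 1. With the arrays of high macrophage level left out, chosen after seeing the data, carcinomas against adenomas gave 4, metastases against adenomas 1 and metastases against carcinomas 0, where 2 metastases remained. With only the 2 groups compared in the model, carcinomas against adenomas gave 4 and metastases against disseminated cells 1. An ordinary equal-variance test on each gene alone gave 2 for disseminated cells against carcinomas and 0 for metastases against disseminated cells, and the deposited log2 ratios gave 7 for metastases against adenomas. Counts over all 28786 genes moved with these settings too. Against adenomas they ran from 949 to 4278 in carcinomas, 63 to 6514 in disseminated cells and 3338 to 9151 in metastases. Against carcinomas they ran from 835 to 8542 in disseminated cells and 1647 to 8264 in metastases. They ran from 280 to 4751 for metastases against disseminated cells. Leaving out 1 array gave 2 to 4 of the 10 genes for carcinomas against adenomas (1959 to 3801 of all genes), with 4 without adenoma 4 or carcinoma 6. With the probes of a gene averaged, Aars turned to 0.28 (metastases against adenomas) and Ubxn4 to -0.086 (disseminated cells against carcinomas), and with the macrophage covariate Dusp1 turned to -0.36, Slc7a11 to -0.42 and Socs3 to -0.52 (disseminated cells against adenomas). Of all values of the named list genes under other settings, 3884 kept direction and side of the threshold, 396 kept the direction only and 5 turned. The causes of these moves were not tested, and leaving out the arrays of high macrophage level also left only 2 metastases.

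The count over all genes moved by more than 1.5 times for the following settings. With the covariate it fell from 5906 to 63 for disseminated cells against adenomas, from 7642 to 835 for disseminated cells against carcinomas, from 8248 to 4059 for metastases against adenomas and from 6339 to 2713 for metastases against carcinomas, and it rose from 56 to 239 for residual against untreated tumors. With the high-macrophage arrays left out it was 3338 for metastases against adenomas and 1647 against carcinomas. For carcinomas against adenomas (3361) it was 1715 without normalization between arrays (Aquantile gives the same ratios by construction), 1922 with median centring and 2214 with the scanner's processed signals. For metastases against disseminated cells (3760) it was 1094 with only the 2 groups in the model and 280 by the ordinary test, which gave 2900 for disseminated cells against adenomas, 11 for residual against untreated tumors and 29 for relapsed against residual tumors (78). Residual against untreated tumors gave 1 with slides as a fixed block, 17 with a normexp offset of 0 and 26 with processed signals, and relapsed against residual tumors 33 with slides as a block. Relapsed against untreated tumors (5) ranged from 0 to 12. With 1 array left out, carcinomas against adenomas gave 2093 without adenoma 2 and 1959 without adenoma 3, metastases against disseminated cells 2425 without disseminated sample 3 and 5972 without sample 6, and relapsed against residual tumors 38 without relapsed tumor 1. Residual against untreated tumors moved without any 1 of 9 arrays, from 14 without untreated tumor 3 to 86 without relapsed tumor 1, and relapsed against untreated tumors moved without any 1 of 13, to between 0 and 3. At an adjusted p below 0.01 the counts were 1038, 2480, 4652, 4051, 2999 and 1536 for the 6 progression comparisons, 5 for residual against untreated and 42 for relapsed against residual tumors, and with a change of at least 2-fold they were 949, 3015, 4191, 3330, 2893 and 2049 and, for residual against untreated tumors, 27.

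Replicate numbers are shared between groups. Same-numbered arrays deviated together in 8 of 31 progression pairs and 6 of 14 chemotherapy pairs (r above 0.1, range -0.413 to 0.423). Their median r was -0.0157 in progression and 0.038 in chemotherapy, against -0.00939 and 0.00846 for other pairs of arrays. The numbers were used as names of arrays, and these values cannot decide whether some arrays were paired. With the replicate block, 3, 2, 3, 4, 5 and 2 of the 10 genes were called in the 6 progression comparisons, in the order given at the start, and 0 in the chemotherapy ones, and residual against untreated tumors had 19 genes in all. As a random block, slides had a correlation of 0.0603 within progression and 0.0149 within chemotherapy arrays.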

Other observations

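Other genes of the stress lists that passed the test did not all follow the 10 genes. Slc7a11, the cystine transporter that Atf4 and Nrf2 raise, was 2.91 higher in disseminated cells than in adenomas (SE 0.86, adjusted p = 0.0213) and 3.44 higher in metastases (SE 0.90, adjusted p = 0.00717), and with the macrophage level as a covariate the first changed sign to -0.42 and the second became 1.31 (adjusted p = 0.194). Stc2, a secreted glycoprotein raised by Perk signaling, averaged 0.62 ± 0.38 (SD, n = 5) in adenomas, and it was lower in disseminated cells (log2 change -2.27, adjusted p = 0.00489) and in metastases (-1.66, adjusted p = 0.0236). Both calls of Stc2 were lost with the covariate (-0.98, adjusted p = 0.668, and -0.84, adjusted p = 0.348). Bbc3, which encodes the death-promoting protein Puma, was higher in carcinomas than in adenomas (0.62, adjusted p = 0.0484), lower in disseminated cells than in carcinomas (-0.92, adjusted p = 0.00184) and higher in metastases than in disseminated cells (1.60, adjusted p = 9.15e-05), and the second of these calls was lost with the covariate (-0.64, adjusted p = 0.196). Cebpg, a partner of Atf4, was 1.99-fold higher in metastases than in carcinomas (adjusted p = 0.00421). Cebpb was higher than in adenomas by 1.90 in carcinomas (adjusted p = 0.0185) and by 1.84 in metastases (adjusted p = 0.0116), of which the second call was lost with the covariate (1.07, adjusted p = 0.211). With the 4 arrays of high macrophage level left out the calls in metastases were lost for Slc7a11 (1.24, adjusted p = 0.359), Stc2 (-0.86, adjusted p = 0.408) and Cebpb (1.56, adjusted p = 0.134).

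Among the heat shock genes, Dnajb1 and Bag3 fell from adenomas to disseminated cells, by 1.26 (adjusted p = 0.00755) and 0.96 (adjusted p = 0.00197), while Hspd1, a chaperone of the mitochondrial matrix, was 1.25 higher in metastases than in carcinomas (adjusted p = 0.0165). With the covariate the calls of Dnajb1 (-1.21, adjusted p = 0.366), Bag3 (-1.16, adjusted p = 0.0862) and Hspd1 (1.30, adjusted p = 0.0530) were lost, and that of Hspd1 also without the 4 arrays (1.07, adjusted p = 0.163).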
